A study of Mus musculus with 24 samples.

Results

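Serum amyloid A, the pentraxins, orosomucoid, haptoglobin and lipocalin 2 are plasma proteins that the liver secretes in the acute phase response, and 10 of their genes were followed here in mouse liver. They were Saa1, Saa2, Saa3 and Saa4, Crp and Apcs, Orm1 and Orm2, Hp, and Lcn2. The members were chosen by gene name: every non-control array probe carrying 1 of these names was taken, which gave 12 of 56605 probes. All 12 were well above background on all 24 arrays. All 10 genes were therefore among the 22088 genes tested.

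RNA came from the livers of 24 female mice of the sv129/C57 strain, used at an age of 8 weeks, with 1 array per mouse. The 4 groups of 6 were LXRalpha beta KO mice given FB1, LXRalpha beta KO controls given water, WT mice given FB1, and WT controls given water. FB1 was dosed at 10 mg per kg body weight per day for 1 month. FB1 (fumonisin B1) is a mould toxin that blocks ceramide synthesis, and the LXRs are oxysterol receptors encoded by Nr1h3 (alpha) and Nr1h2 (beta). By their label both receptors are knocked out in the KO groups, with or without FB1, and the labels name no tissue restriction of the deletion. The labels do not say whether the mice were littermates or how they were housed.

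In the acute phase response, interleukin 6 acts through STAT3, and interleukin 1 through NF-kappa B and C/EBP factors. Both raise transcription of many of these genes in hepatocytes. In the mouse the inducible members include Saa1, Saa2, the orosomucoids, Hp and Lcn2, and serum amyloid P (Apcs) takes the place that CRP holds in humans. LXR agonists are known to dampen inflammatory gene induction in macrophages and liver.

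Values below are log2 signals relative to the 75th percentile of the same array, so a value of 1 more means a doubling, and levels are compared between groups for 1 probe and never between probes. Nr1h3 lay at -5.12 to -2.56 in KO FB1 livers and -5.13 to -3.98 in KO controls, against 4.71 to 4.95 in WT FB1 livers and 4.76 to 5.06 in WT controls. Nr1h2 lay at 0.31 to 0.80 in KO FB1 livers and 0.34 to 0.72 in KO controls, against 4.02 to 4.22 in WT FB1 livers and 4.07 to 4.34 in WT controls. No array went against its genotype label. In KO livers too, both probes stayed well above background on every array, and whether they lie in the deleted part of the genes is not stated. Hepatocyte markers identified the tissue: 13 of 13 were tested, and their summed signal was 1782 to 2858 in KO FB1 livers, 2632 to 3198 in KO controls, 2512 to 2941 in WT FB1 livers and 2691 to 3215 in WT controls, in multiples of the 75th percentile. In whole liver, fewer cells of a type and less RNA per cell cannot be told apart.

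The comparison of KO and WT livers with FB1 called more of the 10 genes than any other comparison. Without FB1, 3 of 10 members differed between KO and WT livers (adjusted p under 0.05, limma), beside 15.2% of all genes. Saa3 was higher, beside 7.21% of all genes called higher, and Crp and Apcs were lower, beside 8.02% called lower. With FB1, 6 of 10 differed between KO and WT livers, beside 32.8% of all genes. Saa3 was higher, beside 14.5% called higher, and Saa4, Crp, Apcs, Orm1 and Orm2 were lower, beside 18.3% called lower. In KO livers FB1 lowered 3 of 10 members, Saa4, Crp and Orm1, beside 41.2% of all genes changed in either direction and 24.6% called lower. The count of 3 in 10 is near the share called lower. Hepatocyte markers were lower in the same comparison, 11 of 13 by the test with a median log2 difference of -0.71, and their summed signal had a median of 1919 in KO FB1 livers and 2896 in KO controls; their part in the decreases of Saa4, Crp and Orm1 was not tested. In WT livers FB1 changed 0 of 10 members by limma, 0 also at an unadjusted p under 0.05, beside 2.89% of all genes. The FB1 effect differed between the genotypes for 1 of 10 members, Saa4, beside 9.3% of all genes called and 4.84% called with a lower value. The median log2 difference of the members was -0.73 for FB1 in KO livers, 0.13 for FB1 in WT livers, -0.86 for KO against WT with FB1 and 0.36 for KO against WT without FB1, where the medians of all genes were -0.08, -0.03, -0.03 and 0.01. The 4 comparisons share groups in pairs and are not independent of each other.

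**Figure D1:**
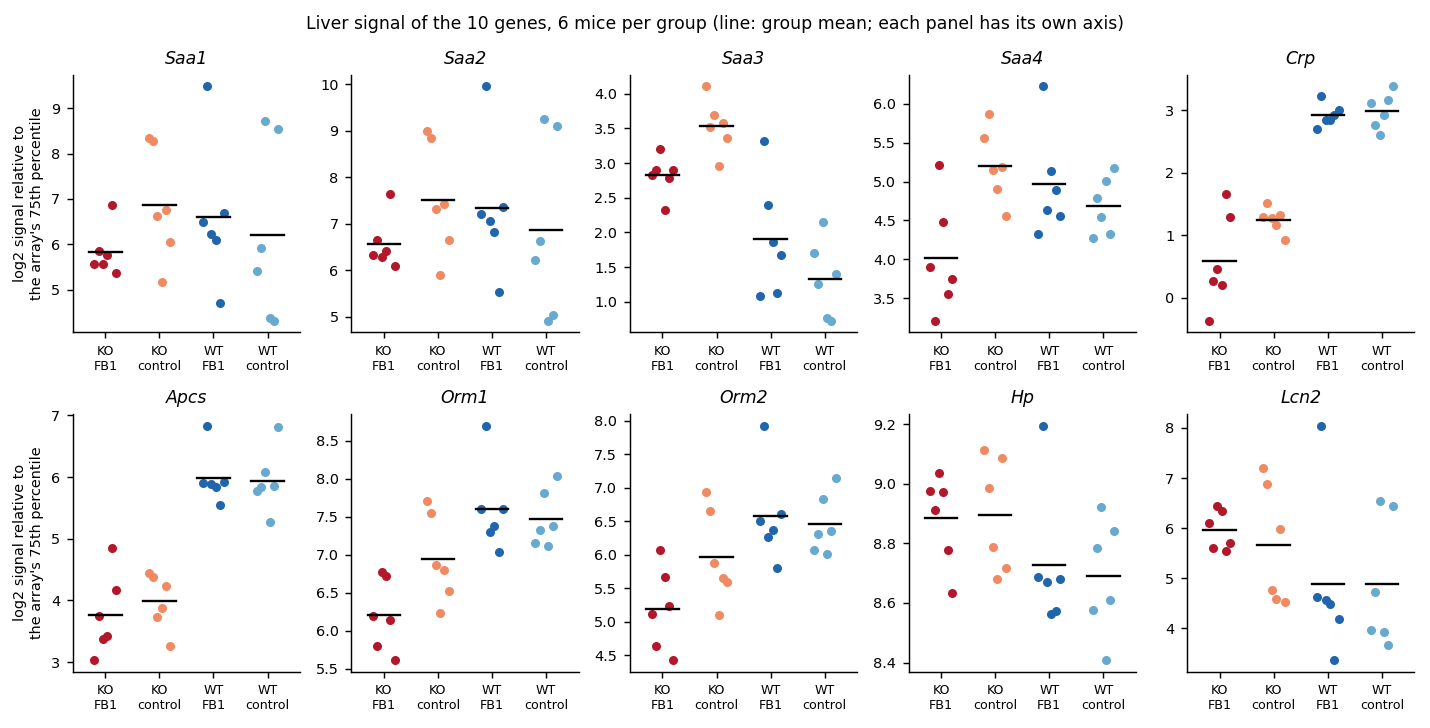
Log2 signal relative to the 75th percentile of the array (vertical axis, a separate scale in each panel) for the 10 genes in KO FB1, KO control, WT FB1 and WT control livers; each point is 1 mouse, 6 per group, and each line is a group mean. Crp and Apcs form separate KO and WT bands, Saa3 is higher in KO, and Saa1, Saa2 and Lcn2 scatter widely within groups.

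**Figure D2:**
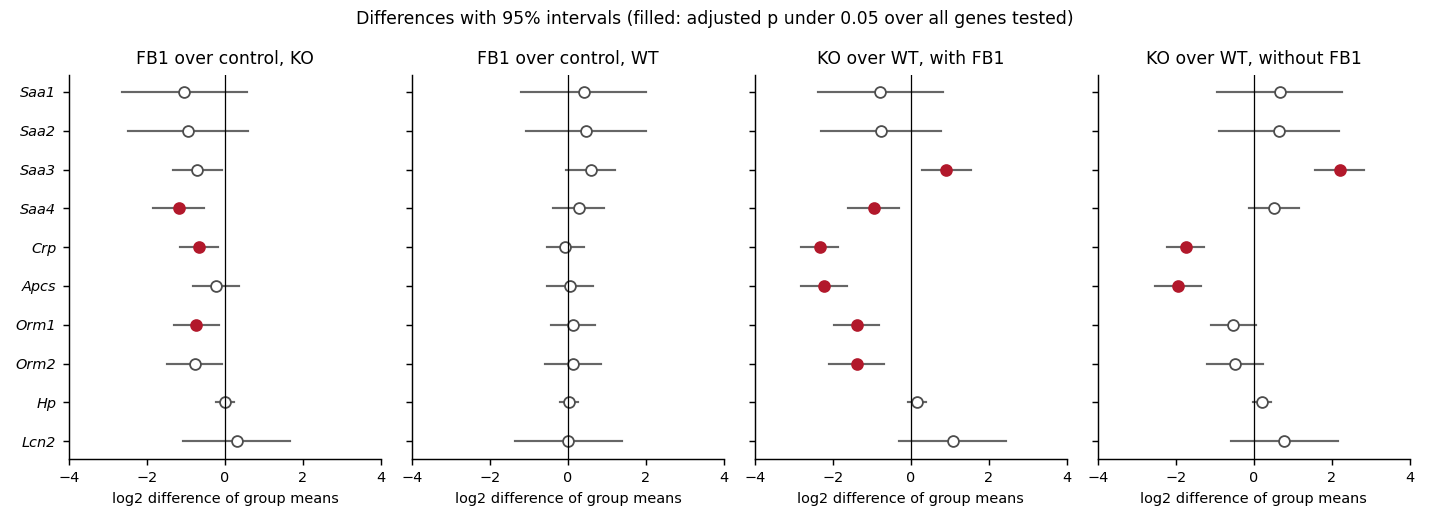
Log2 differences of group means (horizontal axis) with 95% intervals for the 10 genes in 4 comparisons; filled points have an adjusted p under 0.05 over the 22088 genes tested. The intervals of Saa1, Saa2 and Lcn2 are wide and include 0 in every panel, those of Hp are narrow and include 0, and those of Crp and Apcs lie below 0 in both KO over WT panels.

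Saa1 and Saa2 encode the acute serum amyloid A apolipoproteins, which bind to high density lipoprotein in plasma. Their signal varied more from mouse to mouse than between groups. Saa1 had a lowest, median and highest value of 5.38, 5.66 and 6.87 in KO FB1 livers, 5.16, 6.70 and 8.35 in KO controls, 4.71, 6.35 and 9.48 in WT FB1 livers, and 4.32, 5.66 and 8.71 in WT controls. The highest mouse exceeded the lowest of its group 2.82-fold among KO FB1 livers, 9.11-fold among KO controls, 27.3-fold among WT FB1 livers and 21.1-fold among WT controls. All 4 groups overlapped. High values came from KO control mice 1 and 2, WT FB1 mouse 2, and WT control mice 3 and 6, so water-treated mice of both genotypes were among them. The difference in spread between the groups was not tested.

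For Saa2 the lowest, median and highest values were 6.09, 6.36 and 7.65 in KO FB1 livers, 5.89, 7.36 and 8.98 in KO controls, 5.54, 7.14 and 9.96 in WT FB1 livers, and 4.91, 6.43 and 9.25 in WT controls. The same mice stood high as for Saa1, and the groups overlapped. Neither gene passed the test in any comparison. For FB1 in KO livers the Saa1 difference was -1.04 with a 95% interval of -2.65 to 0.57 (adjusted p = 0.299), and for KO against WT without FB1 it was 0.66 with an interval of -0.95 to 2.27 (adjusted p = 0.654).

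The letters upstream of Saa1 and Saa2 are shown because the pair moved almost as 1 gene over the mice (below). The 250 bases before each transcription start, from the RefSeq promoter table of build GRCm38.p6, aligned over 251 columns with 238 identical bases (94.8%), where Saa1 and Saa3 had 48.5%. Saa1 lies on the minus strand at chr7:46742981-46743230 and Saa2 on the plus strand at chr7:46751583-46751832, pointing away from each other. Capitals mark the C/EBP core TTGCNNAA, searched on both strands.
Saa1 upstream: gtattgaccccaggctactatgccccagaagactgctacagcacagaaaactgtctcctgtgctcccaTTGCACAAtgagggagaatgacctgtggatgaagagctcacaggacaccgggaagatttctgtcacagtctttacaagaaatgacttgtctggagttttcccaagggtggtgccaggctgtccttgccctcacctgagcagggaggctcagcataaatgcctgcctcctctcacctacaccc
Saa2 upstream: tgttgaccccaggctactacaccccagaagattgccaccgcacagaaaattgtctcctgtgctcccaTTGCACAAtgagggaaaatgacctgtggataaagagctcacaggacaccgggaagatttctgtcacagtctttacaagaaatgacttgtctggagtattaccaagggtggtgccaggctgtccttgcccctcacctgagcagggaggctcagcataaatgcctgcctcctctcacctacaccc
Both hold the same match, TTGCACAA, which begins at base -182 in Saa1 and -183 in Saa2. The probes of the 2 genes lie at chr7:53996070-53996129 and chr7:54009535-54009594 in the build of the array files, mm9. Whether either probe also binds the transcript of the other gene was not tested.

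Saa3, which in mice is made by macrophages and fat cells as well as liver, was the 1 member that was higher in KO livers. Its probe lies at chr7:53967559-53967618 (mm9). Saa3 had a lowest, median and highest value of 2.32, 2.86 and 3.20 in KO FB1 livers, 2.96, 3.55 and 4.11 in KO controls, 1.09, 1.77 and 3.32 in WT FB1 livers, and 0.73, 1.32 and 2.16 in WT controls. Every KO control lay above every WT control. Among FB1 mice, WT FB1 mice 2 and 3 lay within or above the KO range and the other 4 lay below it. Without FB1, Saa3 was 4.62-fold higher in KO livers than in WT livers (log2 difference 2.21, SE 0.30, adjusted p = 1.07e-05, limma). The difference was 2.65, 2.28 and 1.69 on slides 1, 2 and 3 taken alone. With FB1 it was 1.88-fold higher (log2 difference 0.91, SE 0.30, adjusted p = 0.0242), and this call was lost without WT FB1 mouse 1 (adjusted p = 0.065) or mouse 5 (adjusted p = 0.0652).

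The effect of FB1 on Saa3 was -0.71 in KO livers (adjusted p = 0.064), where 6 of 6 KO FB1 mice lay below the KO control mean, and 0.58 in WT livers (adjusted p = 0.319). The difference between these effects was -1.29 (SE 0.43, adjusted p = 0.0598), so neither it nor the single effects passed the test. Both the KO effect and the difference of effects passed the test with array weights and with a replicate block, and the KO effect also with only its own groups in the fit (adjusted p = 0.00671).

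Saa3 is also made by macrophages and fat cells, so their markers are given beside it. All 13 recruited macrophage markers were tested. In KO against WT livers without FB1, 6 were higher and 4 lower, beside 7.21% and 8.02% of all genes. With FB1, 9 of these markers were higher and 2 lower, beside 14.5% and 18.3% of all genes. The summed signal of these markers was 123 to 154 in KO FB1 livers, 47.6 to 71.0 in KO controls, 70.9 to 105.7 in WT FB1 livers and 63.3 to 117.7 in WT controls, in multiples of the 75th percentile. The median sum was 62.8 in KO controls and 88.8 in WT controls. A sum weighs bright genes most, and gene by gene the median log2 difference of the 13 markers was 0.355 without FB1. For 10 resident macrophage markers the median sum was 37.5 in KO controls and 161.5 in WT controls, and 9 of the 10 were called lower in KO livers without FB1. Gpnmb, which encodes a membrane protein of macrophages loaded with lipid, was at least 30.3-fold higher in KO than in WT livers without FB1 (adjusted p = 6.86e-12); it was not well above background in any WT control. The adipose markers Adipoq, Retn and Cfd did not pass the filter on dim probes in any group, and the other 5 of 8 summed to 4.67 to 8.26 in KO FB1 livers, 3.59 to 5.65 in KO controls, 3.68 to 4.85 in WT FB1 livers and 3.06 to 5.30 in WT controls. The part of either cell type in the Saa3 result was not tested.

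Saa4, the serum amyloid A that is made constitutively, was the 1 member whose response to FB1 differed between genotypes. Its lowest, median and highest values were 3.21, 3.82 and 5.21 in KO FB1 livers, 4.55, 5.17 and 5.87 in KO controls, 4.33, 4.77 and 6.23 in WT FB1 livers, and 4.28, 4.67 and 5.17 in WT controls. In KO livers 5 of 6 FB1 mice lay below the control mean, and mouse 3 made the groups overlap. FB1 lowered Saa4 2.28-fold in KO livers (log2 difference -1.19, SE 0.31, adjusted p = 0.00438), while in WT livers the difference was 0.28 (SE 0.31, adjusted p = 0.68). The difference of the 2 effects was -1.47 (SE 0.45, adjusted p = 0.0395), and with FB1 Saa4 was 1.93-fold lower in KO than in WT livers (adjusted p = 0.0236).

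The decrease of Saa4 by FB1 in KO livers was called without each of the 24 arrays in turn. The difference of effects was not: it lost its call in 15 of 24 such fits, with adjusted p up to 0.0742 and values from -1.71 to -1.21. By slide, the decrease in KO livers was -1.79 and -1.57 on slides 1 and 3 and -0.21 on slide 2. The call of KO against WT with FB1 was lost without KO FB1 mouse 2, 5 or 6 or WT FB1 mouse 2, with adjusted p from 0.0503 to 0.0703.

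The 4 Saa genes stand in 1 cluster on chromosome 7, and their probes lie 2.16 to 2.21 Mb from the probe of Nr1h2 (mm9), 1 of the 2 deleted genes. Of the 183 other tested genes within 5 Mb of Nr1h2, 28 were called between KO and WT livers without FB1, which is 15.3% beside 15.2% of all genes. What part of the Saa3 difference goes with this position was not tested.

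Crp and Apcs encode the pentraxins C-reactive protein and serum amyloid P component, which bind phosphocholine and other ligands on microbes and damaged cells and recruit complement. Both were lower in KO than in WT livers, with no overlap between genotypes, with and without FB1. Groups did not overlap for 7.93% of all genes without FB1 and for 15.2% with FB1. Crp had a lowest, median and highest value of -0.37, 0.36 and 1.65 in KO FB1 livers, 0.92, 1.28 and 1.51 in KO controls, 2.70, 2.88 and 3.23 in WT FB1 livers, and 2.60, 3.02 and 3.38 in WT controls. Every KO liver lay below every WT liver. Crp was 5.07-fold lower in KO livers with FB1 (log2 difference -2.34, SE 0.23, adjusted p = 4.94e-08) and 3.35-fold lower without FB1 (log2 difference -1.74, SE 0.23, adjusted p = 6.37e-06).

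FB1 lowered Crp 1.59-fold in KO livers (log2 difference -0.66, SE 0.23, adjusted p = 0.0252), where 4 of 6 FB1 mice lay below the control mean and mice 5 and 6 did not. That call was lost without KO FB1 mouse 1, 2 or 4 or KO control mouse 2, with adjusted p from 0.0557 to 0.0806. In WT livers the Crp difference was -0.07 with a 95% interval of -0.55 to 0.41 (adjusted p = 0.912). The difference of the effects was -0.60 (SE 0.33, adjusted p = 0.27).

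A dimmer Crp probe did not show the genotype difference. It lies at chr1:174762815-174762874 (mm9), where the probe used for the gene lies at chr1:174629452-174629511, and it is annotated to an Ensembl transcript in place of the RefSeq one. Its KO minus WT difference was -0.33 with FB1 (limma adjusted p = 0.391, over all tested probes) and 0.46 without FB1 (adjusted p = 0.33), while for FB1 in KO livers it gave -1.002 (adjusted p = 0.0067). Which transcript it measures was not tested, and the Crp values in the rest of the text are those of the brighter probe. With the mean of both probes, Crp was lower in KO livers by less, at -1.34 with FB1 and -0.64 without FB1 (adjusted p = 0.0225).

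For Apcs the lowest, median and highest values were 3.04, 3.59 and 4.84 in KO FB1 livers, 3.26, 4.06 and 4.45 in KO controls, 5.55, 5.90 and 6.83 in WT FB1 livers, and 5.27, 5.84 and 6.80 in WT controls. Again the KO and WT ranges were separate. Apcs was 4.66-fold lower in KO livers with FB1 (log2 difference -2.22, SE 0.28, adjusted p = 2.13e-06) and 3.85-fold lower without FB1 (log2 difference -1.95, SE 0.28, adjusted p = 2.26e-05). On single slides the KO minus WT difference without FB1 was -2.16 to -1.82 for Apcs and -1.91 to -1.66 for Crp. The FB1 difference of Apcs was -0.22 in KO livers (interval -0.81 to 0.37) and 0.05 in WT livers (interval -0.53 to 0.64).

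The upstream letters of Crp and Apcs are shown because these members did not overlap between genotypes with or without FB1 and held no C/EBP core in the window, unlike the other 6 members with an entry. Crp is on the plus strand at chr1:172697806-172698055 and Apcs on the minus strand at chr1:172895055-172895304 (GRCm38.p6, RefSeq), and no capitals are set.
Crp upstream: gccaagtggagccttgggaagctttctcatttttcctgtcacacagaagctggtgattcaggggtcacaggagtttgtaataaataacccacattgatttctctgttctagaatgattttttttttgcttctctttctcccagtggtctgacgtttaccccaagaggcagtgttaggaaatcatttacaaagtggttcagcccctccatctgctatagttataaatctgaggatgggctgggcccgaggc
Apcs upstream: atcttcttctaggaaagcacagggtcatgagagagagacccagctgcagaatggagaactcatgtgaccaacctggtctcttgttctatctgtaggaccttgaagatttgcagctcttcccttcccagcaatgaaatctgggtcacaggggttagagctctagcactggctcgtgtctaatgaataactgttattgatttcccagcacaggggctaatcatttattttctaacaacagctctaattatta
The C/EBP core TTGCNNAA was found in 6 of the 8 member promoters with an entry (Saa1, Saa2, Saa3, Saa4, Orm2 and Lcn2), and in 9.56% of 32851 promoters of the same length. The STAT core TTCNNNGAA was found in Apcs alone among the members, at base -244, and in 7.02% of all promoters. The NF-kappa B motif was found in 0 of 8 and in 3.9% of all, and TATAAA in Crp and Orm2 and in 12.37% of all. The motifs were searched on both strands. A match is a description of letters, and a missing match says only that these letters are not in this window.

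The probes of Crp and Apcs lie 195.5 kb apart on chromosome 1 (mm9), near neither receptor gene. Of the 122 other tested genes within 5 Mb of Apcs, 39 were called between KO and WT livers without FB1, 24 higher and 15 lower, which is 32% beside 15.2% of all genes. With FB1 it was 57 of 122, or 46.7%, beside 32.8%. The part of this stretch of chromosome 1 in the Crp and Apcs results was not tested.

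Orm1 and Orm2 encode orosomucoid (alpha-1-acid glycoprotein), an abundant carrier of lipophilic drugs in plasma. Both were lower in KO than in WT livers under FB1. Orm1 had a lowest, median and highest value of 5.62, 6.17 and 6.77 in KO FB1 livers, 6.23, 6.83 and 7.71 in KO controls, 7.03, 7.49 and 8.70 in WT FB1 livers, and 7.11, 7.35 and 8.04 in WT controls. KO FB1 livers all lay below WT FB1 livers, whereas KO controls overlapped WT controls through KO control mice 1 and 2. With FB1, Orm1 was 2.63-fold lower in KO livers (log2 difference -1.39, SE 0.28, adjusted p = 0.000452). Without FB1 the difference was -0.52 (SE 0.28, adjusted p = 0.235).

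Orm2 ran from 4.43 to 6.07 with a median of 5.18 in KO FB1 livers, from 5.11 to 6.94 with a median of 5.77 in KO controls, from 5.80 to 7.93 with a median of 6.44 in WT FB1 livers, and from 6.01 to 7.15 with a median of 6.33 in WT controls. KO FB1 mouse 3 overlapped the lowest WT FB1 mouse. Orm2 was 2.61-fold lower in KO livers with FB1 (log2 difference -1.38, SE 0.34, adjusted p = 0.00318), and the difference without FB1 was -0.48 (adjusted p = 0.402). On single slides the KO minus WT difference with FB1 was -1.58 to -1.19 for Orm1 and -1.71 to -1.10 for Orm2.

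FB1 lowered Orm1 1.67-fold in KO livers (log2 difference -0.74, SE 0.28, adjusted p = 0.0366), with 6 of 6 FB1 mice below the KO control mean. The call was lost without KO FB1 mouse 1, 2, 5 or 6 or KO control mouse 1 or 2, with adjusted p from 0.0563 to 0.0994. It was also lost with quantile normalisation, with the authors' values and with no filter on dim probes. Orm2 differed by -0.77 in the same comparison (SE 0.34, adjusted p = 0.0737). In WT livers the FB1 difference was 0.13 for both genes, with intervals of -0.44 to 0.70 for Orm1 and -0.58 to 0.84 for Orm2. The differences between the FB1 effects of the genotypes were -0.87 for Orm1 (adjusted p = 0.171) and -0.90 for Orm2 (adjusted p = 0.256).

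The Orm1 probe is shown beside that of Orm3, another orosomucoid gene, because Orm3 was the gene most like both Orm1 and Orm2 over the 24 arrays (r = 0.96 and 0.95). The Orm1 probe lies within chr4:63007395-63009038 and the Orm3 probe within chr4:63018910-63020393 (mm9, plus strand), each across an exon junction. Capitals mark the bases that differ in their overlap.
Orm1 probe: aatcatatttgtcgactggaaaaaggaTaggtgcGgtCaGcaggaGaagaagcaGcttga
Orm3 probe: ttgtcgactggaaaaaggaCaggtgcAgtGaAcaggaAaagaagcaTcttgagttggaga
The probes overlap by 52 bases, of which 46 are identical (88.5%). Orm1 and Orm3 signals may therefore share transcripts, and the extent was not tested. The Orm2 probe shares 22 of 52 bases with the Orm1 probe at their best overlap and 23 of 60 with the Orm3 probe. Only probes were compared here, so whether the Orm2 probe binds Orm1 or Orm3 transcripts was not tested.

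Hp encodes haptoglobin, which captures free haemoglobin, and it was the steadiest member. Its lowest, median and highest values were 8.64, 8.94 and 9.04 in KO FB1 livers, 8.68, 8.89 and 9.11 in KO controls, 8.56, 8.68 and 9.20 in WT FB1 livers, and 8.41, 8.70 and 8.92 in WT controls. All groups overlapped within less than 1 log2 unit. The difference was -0.01 for FB1 in KO livers (interval -0.24 to 0.22) and 0.04 for FB1 in WT livers (interval -0.19 to 0.27). KO minus WT was 0.16 with FB1 (adjusted p = 0.298) and 0.20 without FB1 (adjusted p = 0.253). The call for KO against WT with FB1 appeared with the authors' values, where the difference was 0.25 (adjusted p = 0.0233), and with quantile normalisation.

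The gene of the haptoglobin receptor was lower in KO than in WT livers. Cd163, by which macrophages take up the haptoglobin and haemoglobin complex, lay at -5.41 to -3.33 in KO FB1 livers and -2.73 to -1.43 in KO controls, against 0.94 to 2.42 in WT FB1 livers and 1.302 to 2.08 in WT controls. The 4 groups fell into 3 separate ranges, with both WT groups sharing 1. Cd163 was 55.5-fold lower in KO livers with FB1 (adjusted p = 8.35e-13) and 13.1-fold lower without FB1 (adjusted p = 2.88e-09), and FB1 lowered it 4.44-fold in KO livers (adjusted p = 9.54e-06). Hmox1, the enzyme that degrades the haem so delivered, was 3.64-fold lower in KO livers without FB1 (adjusted p = 9.29e-05). Cd163 is also a marker of resident macrophages. Of 10 such markers, 9 were lower in KO livers without FB1 and 8 with FB1, beside 8.02% and 18.3% of all genes. Their summed signal was 33.5 to 49.8 in KO FB1 livers and 27.8 to 45.6 in KO controls, against 127.5 to 180.8 in WT FB1 livers and 73.1 to 198.8 in WT controls.

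Lcn2 encodes lipocalin 2, which withholds iron from bacteria by binding their siderophores, and which neutrophils store in granules besides its release by hepatocytes. Lcn2 had a lowest, median and highest value of 5.54, 5.91 and 6.45 in KO FB1 livers, 4.51, 5.38 and 7.21 in KO controls, 3.36, 4.53 and 8.05 in WT FB1 livers, and 3.66, 4.35 and 6.53 in WT controls. KO FB1 livers spanned 1.88-fold, against 6.48-fold for KO controls, 25.7-fold for WT FB1 livers and 7.31-fold for WT controls. Of the WT FB1 mice, 5 of 6 lay below every KO FB1 mouse, and mouse 2 lay above them all. The KO minus WT difference was 1.07 with FB1 (interval -0.29 to 2.44, adjusted p = 0.225) and 0.78 without FB1 (interval -0.59 to 2.15, adjusted p = 0.501). Without WT FB1 mouse 2 the difference with FB1 was 1.71 and passed the test (adjusted p = 0.0211).

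For FB1 itself the Lcn2 difference was 0.30 in KO livers (interval -1.07 to 1.67) and 0.01 in WT livers (interval -1.36 to 1.37). A second Lcn2 probe, at chr2:32241037-32241281, gave 0.29 and 0.07 in these 2 comparisons, beside the probe used at chr2:32240199-32240258 (mm9). The upstream letters of Lcn2 are shown because its signal tracked those of Saa1 and Saa2, on the minus strand at chr2:32387740-32387989 (GRCm38.p6, RefSeq), with the C/EBP core in capitals.
Lcn2 upstream: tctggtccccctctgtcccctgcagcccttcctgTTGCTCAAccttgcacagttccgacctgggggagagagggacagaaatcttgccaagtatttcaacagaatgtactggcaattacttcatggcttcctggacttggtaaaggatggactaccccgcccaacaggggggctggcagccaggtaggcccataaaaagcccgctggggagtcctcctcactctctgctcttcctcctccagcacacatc
The match begins at base -216.

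Lcn2 is also a neutrophil gene, so markers of that cell type are given beside it. All 13 such markers were tested. With FB1, 0 were higher and 8 lower in KO than in WT livers, beside 18.3% of all genes called lower. Without FB1, 0 of the markers were higher and 3 lower, beside 8.02%. Their summed signal, which weighs bright genes most, was 106.6 to 124.6 in KO FB1 livers and 107.8 to 119 in KO controls. It was 115.8 to 151.6 in WT FB1 livers and 108.2 to 130.3 in WT controls. The median log2 difference of the 13 was -1.37 for KO against WT with FB1 and -0.67 without FB1. For FB1 it was 0.74 in KO livers and 1.35 in WT livers. Mpo, the granule enzyme myeloperoxidase, was 8.78-fold lower in KO livers with FB1 (adjusted p = 0.000103) and 4.63-fold lower without FB1 (adjusted p = 0.0064). In WT livers FB1 raised 1 of the 13, the antimicrobial peptide gene Camp, 2.74-fold (adjusted p = 0.0407, limma). At an unadjusted p under 0.05, 9 of the 13 differed in that comparison. The lipocalin 2 receptor gene Slc22a17, chosen after its values were seen, differed by -0.53 with FB1 (adjusted p = 0.000843) and -0.58 without FB1 (adjusted p = 0.000807) between KO and WT livers.

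Most of the 10 genes moved together from mouse to mouse once the group means were removed. Of the 45 pairs, 30 had a Pearson correlation past an adjusted p of 0.05 (permutation of mice within groups, 100000 resamples, two-sided, Benjamini-Hochberg over the 45 pairs), and all 30 were positive. With Spearman's rho 27 pairs passed. The members share the arrays and their scaling, so these values describe the mice and their RNA preparations together.

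Saa1 and Saa2 had r = 0.998 (rho 0.989, n = 24, adjusted permutation p = 8.18e-05). Orm1 and Orm2 had r = 0.991 (rho 0.982, adjusted permutation p = 8.18e-05). Saa1 with Lcn2 had r = 0.90 (rho 0.81, adjusted permutation p = 8.18e-05), which was 0.85 without the 2 mice farthest from the Saa1 median and 0.90 with slide also removed. Hp, for all its narrow range, had r = 0.88 with Lcn2 (rho 0.84, adjusted permutation p = 8.18e-05), 0.84 with Orm1 and 0.77 with Saa1. By slide, Hp with Lcn2 had r = 0.84, 0.97 and 0.80 on slides 1, 2 and 3. Hp with Orm1 had 0.20, 0.95 and 0.91, and Hp with Saa1 had 0.29, 0.91 and 0.81, so these relations were weak on slide 1. Others were weak there too, among them Hp with Orm2 (r = 0.04), Orm1 with Lcn2 (0.33) and Orm2 with Lcn2 (0.27).

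**Figure D3:**
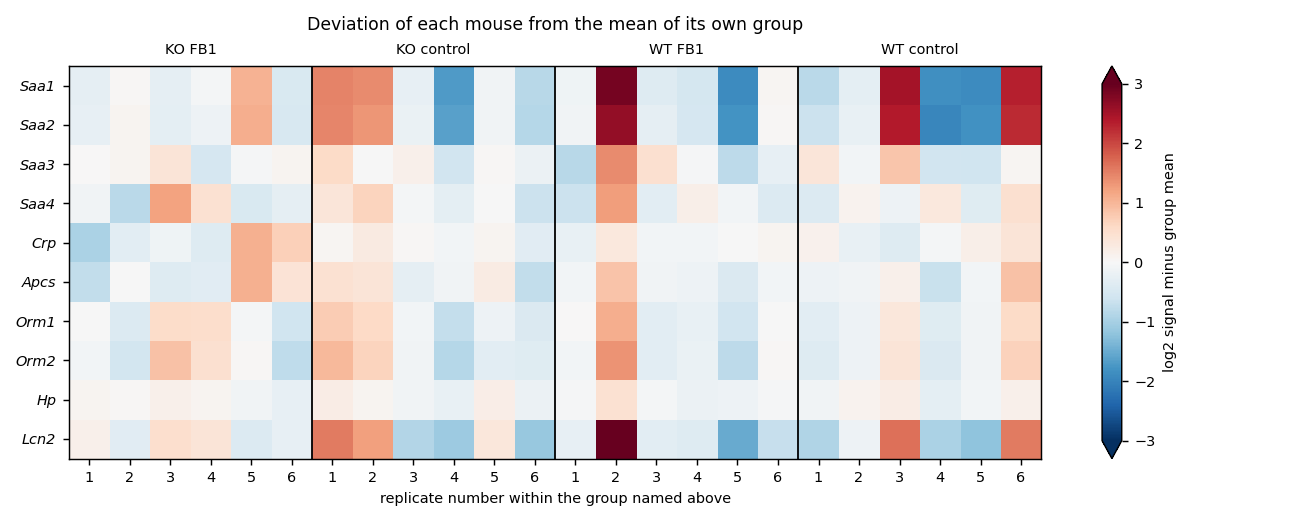
Deviation of each mouse (columns, by replicate number within KO FB1, KO control, WT FB1 and WT control) from the mean of its own group, in log2 units, for the 10 genes (rows); the colour scale ends at 3 on either side. WT FB1 mouse 2, KO control mice 1 and 2 and WT control mice 3 and 6 are high across most rows. In Crp, WT control mouse 3 lies below its group mean, at -0.39, and the other mice named lie 0.05 to 0.39 above theirs.

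Crp was apart from this pattern. It correlated with Apcs (r = 0.76, rho 0.65, adjusted permutation p = 0.000366, 0.62 without the 2 farthest mice), and with no other member: its 8 other correlations ran from -0.13 to 0.22, with adjusted permutation p of 0.164 or more. Apcs correlated with Crp and also with Saa1 (r = 0.72, rho 0.68, adjusted permutation p = 0.000129). Saa4 correlated with Orm2 (r = 0.75, rho 0.53, adjusted permutation p = 0.000945) and Orm1, and its correlation with Saa1 was 0.41 (rho 0.29, adjusted permutation p = 0.0509). By slide, Saa4 with Orm2 had r = 0.09, 0.76 and 0.79 on slides 1, 2 and 3, and with Orm1 0.19, 0.73 and 0.80. For Saa3 the correlations with Orm1 and Orm2 were past the threshold by Pearson's r (0.55 and 0.58) but not by rho (adjusted permutation p = 0.144 and 0.113), and fell to 0.32 and 0.38 without the 2 farthest mice.

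**Figure D4:**
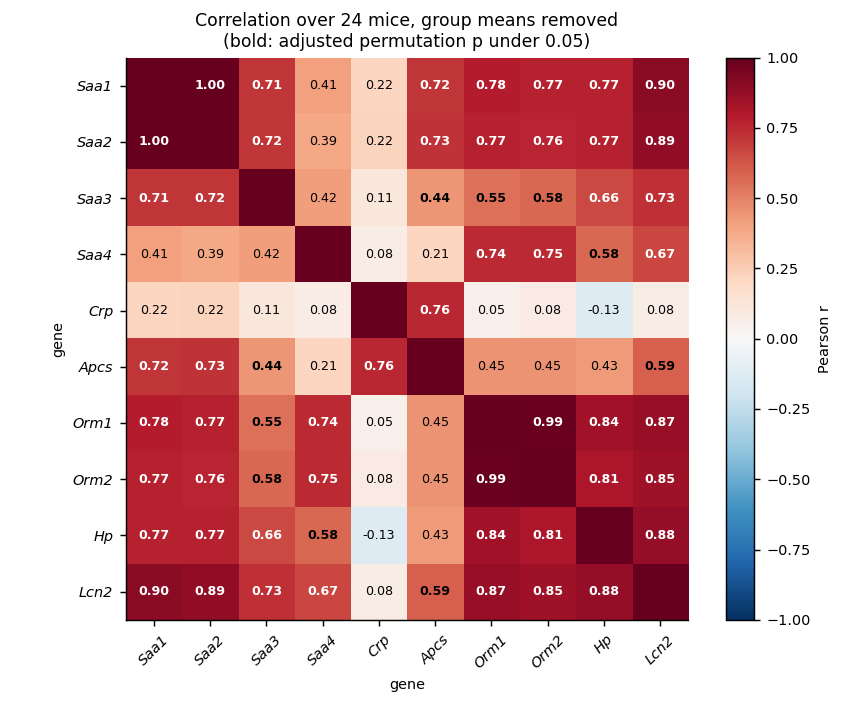
Pearson correlation of each pair of the 10 genes over 24 mice after removal of group means (both axes list the genes), with the adjusted permutation p under 0.05 in bold. Saa1, Saa2, Orm1, Orm2, Hp and Lcn2 form a block, in which the lowest value is 0.76, and Crp correlates only with Apcs.

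The correlation of Lcn2 with Saa1 was also taken within each group of 6. It was r = -0.51 in KO FB1 livers (exact permutation p = 0.321, adjusted 0.398 over 36 relations), 0.93 in KO controls (exact p = 0.00417, adjusted 0.015), 0.97 in WT FB1 livers (exact p = 0.0264, adjusted 0.0638) and 0.99 in WT controls (exact p = 0.00139, adjusted 0.01). In KO FB1 livers Saa1 had r = 0.00 with Orm1, 0.07 with Orm2, -0.17 with Hp, -0.19 with Saa3 and -0.37 with Saa4. With Apcs it had 0.72, as in KO controls, and with Crp 0.55. None of these passed an adjusted exact p of 0.05. With Saa2 it had 0.997 (exact p = 0.00139, adjusted 0.01). The differences between groups in these correlations were not tested. KO FB1 livers had the narrowest Saa1 range, and 1 mouse, number 5, held both the highest Saa1 and the lowest Lcn2. Lcn2 minus Saa1 on the log2 scale, a ratio chosen after its values were seen and whose 0 has no meaning, averaged 0.12 ± 0.81 in KO FB1 livers, -1.22 ± 0.48 in KO controls, -1.73 ± 0.41 in WT FB1 livers and -1.33 ± 0.72 in WT controls (SD, n = 6 each).

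**Figure D5:**
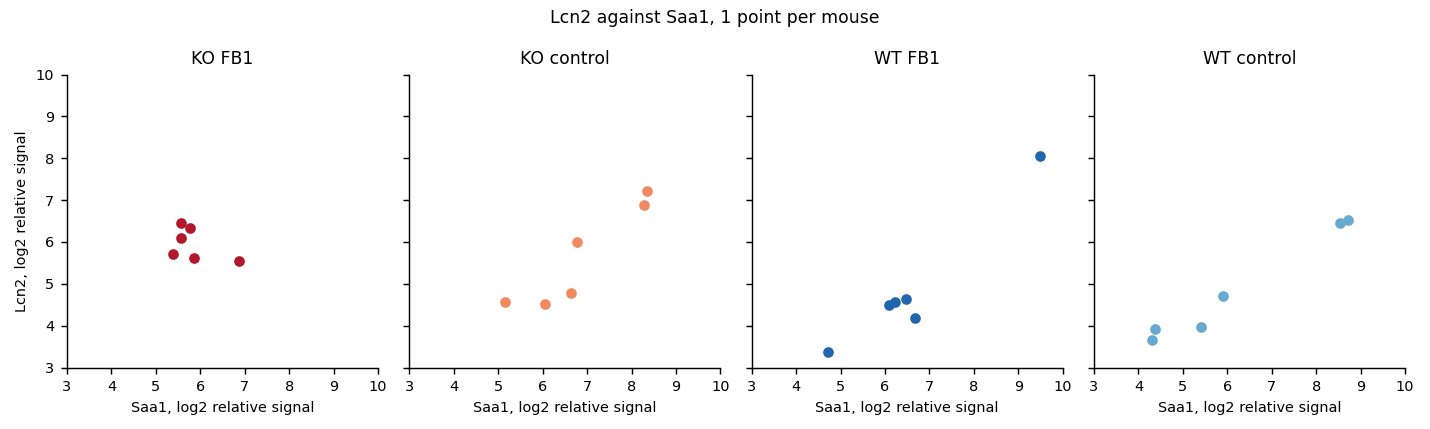
Lcn2 (vertical axis) against Saa1 (horizontal axis), both as log2 relative signal, with 1 point per mouse in KO FB1, KO control, WT FB1 and WT control livers. The 2 genes rise together in the KO control, WT FB1 and WT control panels, while the KO FB1 points stay within 5.38 to 6.87 for Saa1 and 5.54 to 6.45 for Lcn2.

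The genes outside the 10 that were most like them over the 24 arrays were ranked by Pearson's r among 22033 genes, as a description. Saa1 and Saa2 had the same 3: Itih3, an inter-alpha-trypsin inhibitor chain (r = 0.85 with each), Serping1, the C1 inhibitor (0.84 and 0.82), and Apon (0.82 with each). Lrg1, a leucine-rich glycoprotein of acute phase plasma, was nearest to both Hp (r = 0.86) and Lcn2 (r = 0.94), followed for Hp by Rpap3 and Stat3 and for Lcn2 by Tmem176b. Orm3 led for Orm1 and Orm2, before an unnamed Ensembl transcript and Cyp3a13. Apcs was nearest to Olfr1260 (r = 0.98), Gm35686 and Meox1. Saa3 was nearest to Pih1d2 (r = 0.86), Prdx2 and Cfap126, whose correlations were 0.58, 0.49 and 0.28 after group means were removed. Saa4 was nearest to features named only by their position (r = 0.89 and 0.87). They came before Rxra, the partner receptor of the LXRs (r = 0.86, and 0.79 with group means removed).

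Other acute phase genes were read from a list of 26 positive reactants, 25 of them tested. FB1 in KO livers raised 1 and lowered 6, with a median log2 difference of -0.17. Together these are a smaller share than the 41.2% of all genes called, but the 6 are near the 24.6% called lower. Meanwhile FB1 in WT livers changed 0 by limma (2 at an unadjusted p under 0.05). KO livers differed from WT livers in 1 higher and 8 lower with FB1, beside 32.8% of all genes called and 18.3% called lower. Without FB1, 3 were higher and 3 lower, beside 15.2% of all genes called. Hamp2, a relative of the iron hormone hepcidin, lay at 2.64 to 4.83 in KO FB1 livers, 6.03 to 7.42 in KO controls, 6.22 to 7.95 in WT FB1 livers and 7.81 to 8.72 in WT controls. FB1 lowered Hamp2 6.74-fold in KO livers (adjusted p = 7.71e-07), and this effect differed from that in WT livers by -1.76 (adjusted p = 0.0152). Sod2, the mitochondrial superoxide dismutase, fell 1.65-fold with FB1 in KO livers (adjusted p = 2.19e-06). Lbp, which binds bacterial lipopolysaccharide, was 1.60-fold higher in KO than in WT livers without FB1 (adjusted p = 0.00501).

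Negative reactants are proteins that the liver makes less of in the acute phase. Of 18 tested, FB1 in KO livers raised 1 and lowered 8 (median log2 difference -0.16), beside 41.2% of all genes called and 24.6% called lower. FB1 in WT livers raised 1, Itih1, by 1.21-fold (adjusted p = 0.0141, limma), beside 2.89% of all genes called. Serpina6, the corticosteroid-binding globulin, fell 2.01-fold with FB1 in KO livers (adjusted p = 0.000179), and Pon1, an enzyme carried on high density lipoprotein, fell 1.55-fold (adjusted p = 1.76e-05). In KO against WT livers with FB1, 1 of 18 was higher and 6 lower, beside 14.5% and 18.3% of all genes. The higher one was Apoa4, an apolipoprotein, at 6.21 to 8.13 in KO FB1 livers and 4.31 to 5.59 in WT FB1 livers, a 4.93-fold difference (adjusted p = 2.7e-05). The part of the lower hepatocyte markers in these counts was not tested.

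Genes of the signal from interleukin 6 and related cytokines to STAT3 and C/EBP were listed as 28, of which 26 were tested. Their counts, and those of the next lists, stand beside 41.2% of all genes called for FB1 in KO livers, 2.89% for FB1 in WT livers, and 32.8% with FB1 and 15.2% without FB1 for KO against WT. FB1 in KO livers raised 4 and lowered 6, FB1 in WT livers changed 0 by limma (3 at an unadjusted p under 0.05), and KO against WT livers gave 4 higher and 6 lower with FB1 and 3 higher and 2 lower without FB1. Osm, the cytokine oncostatin M, was 3.06-fold higher in KO livers with FB1 (adjusted p = 3.86e-05) and 2.04-fold higher without FB1 (adjusted p = 0.00752), as fitted values, since 3 of 6 WT FB1 arrays and 2 of 6 WT controls were well above background. Its receptor Osmr was 1.42-fold higher in KO livers without FB1 (adjusted p = 0.0229). Lifr, the receptor for leukaemia inhibitory factor, was 3.01-fold lower in KO livers with FB1 (adjusted p = 5.02e-05). Cebpa, which encodes a C/EBP transcription factor of liver, fell 1.47-fold with FB1 in KO livers (adjusted p = 0.000518).

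The 29 genes of the interleukin 1, TNF and NF-kappa B list were all tested. FB1 in KO livers raised 7 and lowered 4, FB1 in WT livers changed 0 by limma (3 at an unadjusted p under 0.05), and KO against WT livers gave 9 higher and 3 lower with FB1 and 5 higher and 1 lower without FB1. Tlr2, a receptor for bacterial lipoproteins, lay at 0.68 to 1.995 in KO FB1 livers and -0.28 to 0.47 in KO controls, against -0.95 to -0.36 in WT FB1 livers and -1.49 to -0.23 in WT controls. FB1 raised it 2.504-fold in KO livers (adjusted p = 3.54e-05). Cd14, a co-receptor for lipopolysaccharide, was 2.63-fold lower in KO than in WT livers without FB1 (adjusted p = 5.74e-06), and its response to FB1 differed between genotypes by 1.38 (adjusted p = 0.00261). Il1rap, the accessory chain of the interleukin 1 receptor, fell 1.77-fold with FB1 in KO livers (adjusted p = 2.49e-05). Of the 22 receptors and binding partners of the 10 proteins, 21 were tested: 9 rose and 3 fell with FB1 in KO livers, 0 changed with FB1 in WT livers by limma (3 at an unadjusted p under 0.05), and KO against WT gave 2 higher and 10 lower with FB1 and 0 higher and 11 lower without FB1.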

How the data were processed

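Per the labels, liver RNA was extracted with TriZol, labelled with Cy3 and hybridised to 1-colour arrays, with 6 mice per group. Spot intensities were read with Agilent Feature Extraction 10.10.1.1, per the file headers, which also record background subtraction and detrending within each array; these intensities were deposited with no normalisation between arrays. The authors also deposited log2 values of the same arrays, used as an alternative in which Saa4 had no value. How those were filtered is not known here. The submitters' processing notes name limma.

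Each processed intensity was put on the log2 scale and the array's 75th percentile (489.9 to 684.8 in signal) was subtracted. Outlier spots (64 to 121 of 59305 per array) were left out, spots of a probe were averaged, and 0 spots were saturated. To enter the test, a probe needed a signal well above background on all 6 arrays of some group, and 4 or more values in each group; 33417 of 56605 probes did so. A gene is its tested probe with the highest mean. The fold of a probe that was not well above background in any array of 1 group is a lower bound, against the lowest signal well above background on each array. RefSeq names were found for 32994 probes. On each array 58.7% to 64.5% of the probes were well above background, and the number of arrays limits the precision. The 24 arrays lay on 3 slides with 2 arrays of each group on every slide, and arrays of 1 group correlated at 0.984 to 0.994.

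All 24 arrays entered 1 fit of 4 group means with limma 3.58.1 (lmFit, eBayes) in R 4.3.3, with Benjamini-Hochberg adjustment over 22088 genes and calls at adjusted p under 0.05. The fit was tested on simulated data for FB1 in KO livers with 22088 genes, 200 of them changed. It recovered 44% of genes changed by 0.5, 87% of those changed by 1 and 96% of those changed by 2 on the log2 scale. In the data 41.2% of genes were called in this comparison, so these recovered shares need not hold there. Correlations between members used deviations from group means, permuting mice within groups. Upstream sequences came from the RefSeq promoter collection (GRCm38.p6), which held 8 of the 10 genes (not Orm1 and Hp), and were aligned with Biopython 1.88.

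The members and lists were chosen with earlier results of these data known. Named genes were the members, Nr1h3 and Nr1h2, for each list up to 3 called genes of smallest p per comparison (or the 1 of smallest p where none was called), and the 3 genes most like each member. The genes this rule names are described in part, and Slc22a17, which it does not name, was added after its values were seen. Replicate numbers were not taken to pair the mice in the main fit, and a replicate block was an alternative. Of 36 correlations of deviations between same-numbered mice, which ran from -0.20 to 0.24, 5 exceeded 0.1. Differently numbered mice were not compared, so pairing was not tested. Alternatives changed the normalisation, background correction, source of the values, probe filter, outlier spots, gene summary, blocks, samples in the fit, variance model, array weights, threshold and single arrays.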

Additional observations from a re-analysis of the deposited data

Results flagged for a closer look

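In 6 of 40 sets of 6 mice (10 genes in 4 groups), 1 mouse stood apart from the other 5 of its group by the gap to its nearest neighbour; chance flags about 1 in 20 groups. KO FB1 mouse 5 stood apart in Saa1, at 6.8718, and in Saa2, at 7.648. WT FB1 mouse 2 stood apart in Apcs at 6.8341, Orm1 at 8.6979, Hp at 9.1954 and Lcn2 at 8.0481. The members are correlated over mice, so these are not 6 separate events. Without WT FB1 mouse 2, Lcn2 was called higher in KO than in WT livers with FB1 (log2 difference 1.71, adjusted p = 0.0211, limma), and the Saa4 call in that comparison was lost (adjusted p = 0.0703).

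The Saa4 response to FB1 differed between KO and WT livers by -1.4666 on the log2 scale (adjusted p = 0.0395, limma), a call that was lost in 15 of 24 fits that left out 1 array.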

How the results depend on the processing

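The calls of Saa3, Crp and Apcs between KO and WT livers without FB1, and of Crp, Apcs, Orm1 and Orm2 with FB1, were made without each of the 24 arrays in turn. The members called for FB1 in KO livers numbered 3, and 1 with the authors' values, 5 with array weights and 1 to 5 when 1 array was left out. For the difference of the FB1 effects the count was 1, and 0 with the authors' values, in which Saa4 had no value, or with no filter on dim probes, 2 with array weights and 0 to 2 when 1 array was left out. With a replicate block the Saa4 difference of effects was -1.47 (adjusted p = 0.0544), losing its call, while Saa3 passed for FB1 in KO livers (-0.71, adjusted p = 0.0394) and for the difference of effects (-1.29, adjusted p = 0.0402). Fitting only the groups compared lost the calls of Crp for FB1 in KO livers (adjusted p = 0.0772) and of Saa3 and Saa4 between KO and WT livers with FB1 (adjusted p = 0.0504 and 0.0641), and made that of Saa3 for FB1 in KO livers (adjusted p = 0.00671). Beyond that missing gene, the cause was not tested.

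Signs turned only in differences that were not called, except for Crp without FB1 between KO and WT livers, which was 0.4563 with the gene's other probe and -0.64 with the mean of both. Hp for FB1 in KO livers was 0.1187 with quantile normalisation and 0.0709 with the authors' values, and its difference of effects 0.0437 and 0.0464. Lcn2 for FB1 in WT livers was -0.085 with array weights. When 1 array was left out, the FB1 difference in WT livers ran from -0.1731 to 0.9015 for Saa1, -0.0594 to 0.9439 for Saa2, -0.1449 to 0.0104 for Crp, -0.1159 to 0.2269 for Apcs, -0.0897 to 0.2435 for Orm1, -0.1404 to 0.2849 for Orm2, -0.056 to 0.0834 for Hp and -0.6278 to 0.3366 for Lcn2. Hp for FB1 in KO livers ran from -0.0522 to 0.0405, and the difference of effects from -0.093 to 0.0464 for Hp and -0.0373 to 0.9271 for Lcn2. The dim second Crp probe and the spread of Saa1, Saa2 and Lcn2 within groups limit what these arrays can show.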
